A study of Mus musculus with 10 samples.

Results

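The trefoil factors TFF1, TFF2 and TFF3 and the anterior gradient proteins AGR2 and AGR3 were followed in human breast cancer cells grown in mice. The members were taken by name, as the probe sets that the platform's annotation gives 1 symbol among these 5. That gave 6 probe sets of the 61359 on the array and 5 of the 19556 genes, with a pair of probe sets for AGR2 and 1 for each other gene. The annotation gives them the Entrez Gene identifiers 7031 (TFF1), 7032 (TFF2), 7033 (TFF3), 10551 (AGR2) and 155465 (AGR3).

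The cells were estrogen receptor positive, per the title of the series, and grew in female nu/nu mice of 20 weeks, a strain that lacks a thymus and so most T cells. All mice had been given an estrogen pellet. In the E groups the mice are labelled as treated with it, and in the EWD groups (estrogen withdrawn) it had been taken out for 1 week. Axillary lymph node metastases came from mice 6, 11 and 14 in the E group and mice 9, 10 and 19 in the EWD group. Primary mammary gland tumors came from 2 of the mice in each state, 11 and 14 under estrogen and 10 and 19 without it. Cells were cut from frozen sections by laser capture and their RNA was amplified by PCR, so each array reads 1 captured sample of 1 site of 1 mouse. There was no group that had never received estrogen, and the cell line is not given in the sources used here.

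Trefoil factors are small secreted peptides built on a cysteine-rich fold, the trefoil domain. They are released with mucins from the lining of the gut, where they serve repair of the surface and the build of the mucus layer, and TFF1, also called pS2, is the textbook estrogen-induced gene of breast cancer cells. AGR2 and AGR3 belong to the protein disulfide isomerase family, enzymes of the endoplasmic reticulum that help secreted proteins such as mucins fold. AGR2 is found in estrogen receptor positive breast tumors and is also released from cells, and AGR3 is its close relative and neighbour in the genome.

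The values were the deposited log2 signals. Bright probe sets were dimmer on both primary tumor arrays of the E group, where the 99th percentile was 9.44 and 10.04, than on the other 8, where it was 11.39 to 11.67. All medians lay between 2.70 and 2.83. Between the primary tumor groups, estrogen minus withdrawn, the median difference was −1.90 among genes averaging above 10 and 0.11 among those averaging under 4. Each comparison was repeated after quantile normalization, which gives every array the same distribution. It moved the median of all genes from −0.10 to 0.06 in that comparison and from 0.26 to 0.02 in lymph node against primary tumor with estrogen. The 18 hybridization control probe sets, which read transcripts added to each sample, split the arrays another way. Their mean was 12.04 to 12.47 on a high side of 4 arrays, the lymph nodes of mice 11 and 19 and the primary tumors of mice 10 and 19. It was 9.47 to 10.59 on a low side of 6. The GAPDH control, read at both ends of its transcript, gave a 3′ minus 5′ difference, a sign of RNA quality, of 3.15 and 3.73 on the E primary tumor arrays. It was 4.62 and 5.87 on the EWD ones, the highest of the 10 arrays, and the E values were the lowest. Lymph node arrays lay between, at 3.84 to 4.39, so the GAPDH difference also split the sites within each state.

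Luminal epithelial markers fitted the label in part. KRT18 (11.18 to 13.47), EPCAM (8.64 to 12.41) and CDH1 (8.90 to 12.19) were high on every array, and KRT19 was low (3.90 to 4.97). Of the other cell types, the pan-leukocyte marker PTPRC (2.00 to 2.54), the mesenchymal marker VIM (2.14 to 2.56) and the fat marker ADIPOQ (1.98 to 2.30) lay near the lowest values, while CD79A (3.73 to 6.52) and COL1A1 (6.33 to 7.54) did not. The arrays carry human probe sets, so host RNA can be read only by cross-hybridization.

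**Figure D1:**
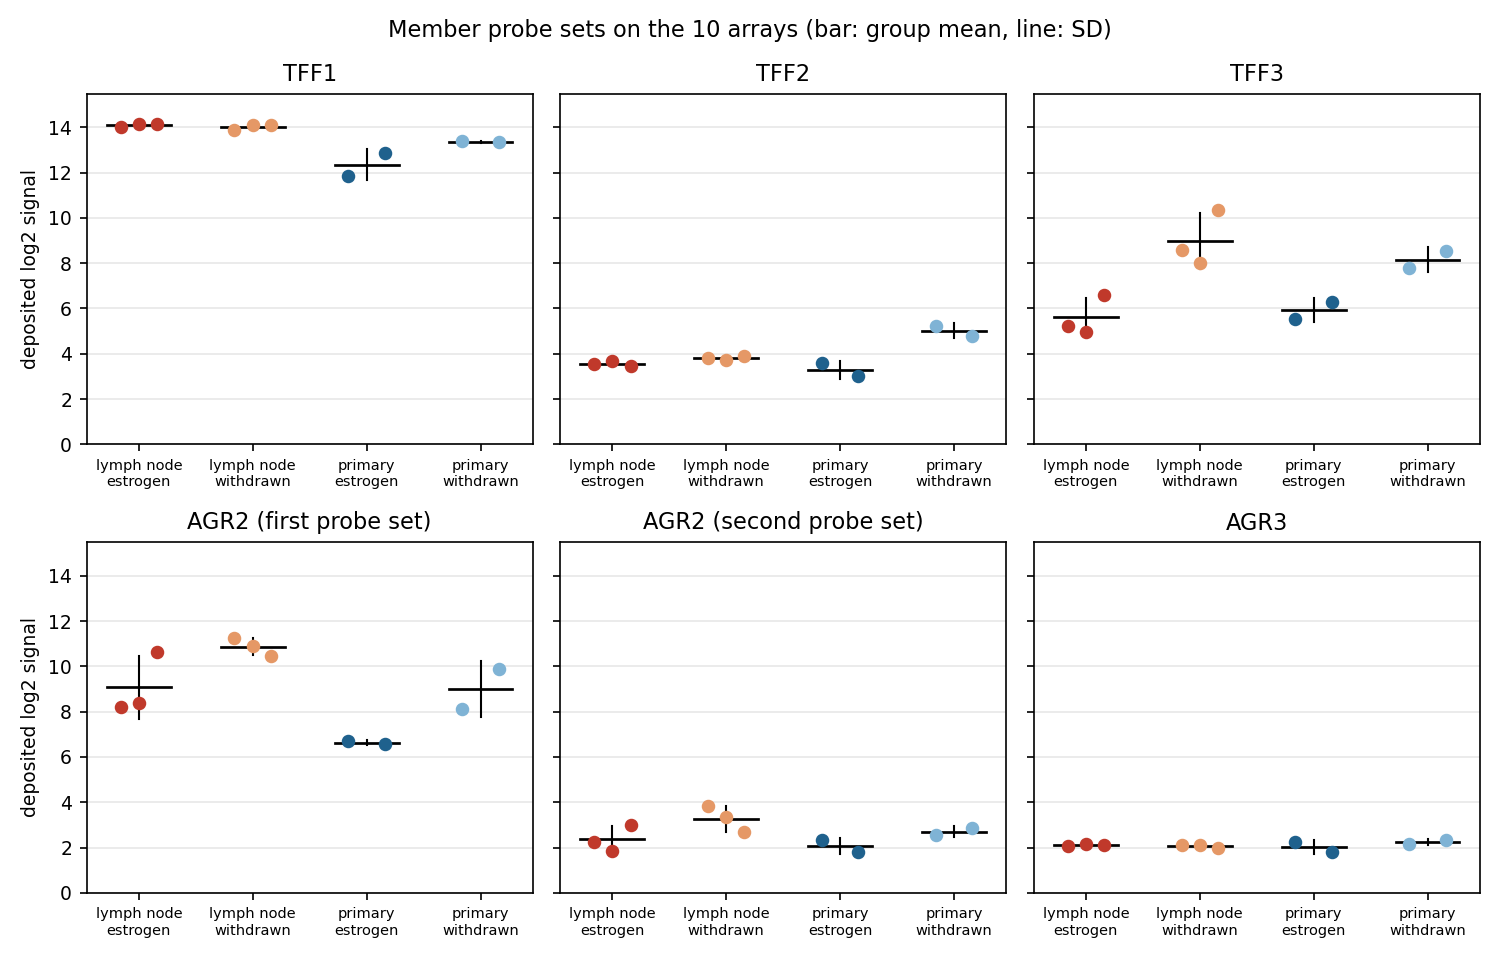
Deposited log2 signal (vertical axis) of the 6 member probe sets in the 4 groups (horizontal axis), 1 point per array, with the group mean as a bar and the SD as a line. TFF1 sits at 11.86 or above everywhere, TFF3 and the first AGR2 probe set spread over 5.38 and 4.67 log2 units, and AGR3 stays between 1.80 and 2.34.

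TFF1 was among the brightest probe sets of every array and higher in lymph nodes than in primary tumors. In lymph nodes with estrogen it read 14.02, 14.13 and 14.14 in mice 6, 11 and 14, and after withdrawal 13.91, 14.12 and 14.09 in mice 9, 10 and 19. In primary tumors it read 11.86 and 12.85 with estrogen in mice 11 and 14, and 13.41 and 13.34 after withdrawal in mice 10 and 19. All 6 lymph node arrays thus lay above all 4 primary tumor arrays, and the lymph node groups overlapped each other. The share of all genes that separate the sites this way is not given here.

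The signal of TFF1 was close to the top of the scale. It held place 10 to 18 from the top among the 61359 probe sets of a lymph node array, 0.50 to 0.79 log2 units below the brightest. On primary tumor arrays its place was 29 to 77, and the gap was 1.14 to 2.18. The deposited values carry no mark of saturation, and the part of a ceiling in the small difference between the lymph node groups was not tested.

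With estrogen, TFF1 was higher in lymph nodes than in primary tumors by 1.74 ± 0.29 (SE) on the log2 scale, a 3.34-fold difference (limma adjusted p = 0.0106). It was the 1 member of 4 tested that was called in this comparison, in which 8.76% of 17170 genes were called, 7.81% higher in lymph nodes and 0.949% lower. The 129 genes averaging above 12 differed by a median of 1.82, close to TFF1. After quantile normalization its difference was 0.50 (adjusted p = 0.367), and in that setting 16 genes were called higher and 71 lower where 1341 and 163 had been. Without the estrogen-treated primary tumor of mouse 11, which had the lowest TFF1 reading, the difference was 1.25 (adjusted p = 0.0539).

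After withdrawal the same site difference of TFF1 was 0.66 ± 0.29 (adjusted p = 0.498), with no overlap between arrays, and 0.81 after quantile normalization (adjusted p = 0.361). Averaged over both states it was higher in lymph nodes by 1.20 ± 0.21 (limma adjusted p = 0.0144). This call was lost after quantile normalization (0.66, adjusted p = 0.105), without the lymph node of mouse 10 (1.18, adjusted p = 0.0555) and without the primary tumor of mouse 19 (1.18, adjusted p = 0.0621). The lymph node reading was the higher one in 4 of 4 mice with both sites, by 2.27 and 1.29 in mice 11 and 14 and by 0.71 and 0.75 in mice 10 and 19. On the quantile-normalized scale it was higher in 4 of 4 as well, by 0.41 to 0.90.

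No difference of TFF1 between the pellet states was called at either site. In lymph nodes the difference, estrogen minus withdrawn, was 0.06, with a 95% interval of −0.52 to 0.64 (adjusted p = 0.985). In primary tumors it was −1.02 ± 0.31 (adjusted p = 0.0814), with the estrogen arrays below the withdrawn ones, and it was called without the primary tumor of mouse 14 (−1.50, adjusted p = 0.0268). Without that of mouse 11 it was −0.52 (adjusted p = 0.282). After quantile normalization the sign turned, to 0.31 (adjusted p = 0.437). By place on the array TFF1 was also nearer the top with estrogen (29 and 55) than after withdrawal (73 and 77), so its direction in primary tumors depended on the scale.

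TFF2, the spasmolytic polypeptide of gastric mucous neck cells, read low on every array and stood out in 1 group. It read 3.55, 3.68 and 3.44 in lymph nodes with estrogen and 3.80, 3.71 and 3.90 after withdrawal. In primary tumors it read 3.57 and 3.01 with estrogen and 5.25 and 4.78 after withdrawal. The withdrawn primary tumors were the highest of the 10 arrays, and the other 8 lay between 3.01 and 3.90.

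In primary tumors TFF2 was lower with estrogen by 1.72 ± 0.27 on the log2 scale, a 3.30-fold difference (limma adjusted p = 0.0141). It was the 1 member of 4 tested that was called, where 7.82% of all genes were called, 6.94% lower and 0.879% higher. TFF2 averaged 3.87 over all arrays, and genes averaging under 4 had a median of 0.11 here, on the other side of 0. That average lay at the edge of the band, and genes averaging 4 to 7 had −0.26, on the side of TFF2. After quantile normalization TFF2 was at −1.73 (adjusted p = 0.0381), where 133 genes were called higher and 103 lower in place of 151 and 1191. Among all 61359 probe sets of the array TFF2 held places 10912 and 12805 after withdrawal and 19138 and 26929 with estrogen. The call rested on 2 arrays a group: leaving out any 1 of these 4 gave −1.99 to −1.46, with an adjusted p of 0.0537 to 0.0707. In primary tumors the withdrawn arrays made up the high side of the hybridization controls and the estrogen arrays the low side, so that split and the treatment cannot be told apart. The GAPDH difference of 3.15 and 3.73 against 4.62 and 5.87 moved with every estrogen comparison of primary tumors. It also moved with every site comparison within a single state, for all members, as lymph nodes lay at 3.84 to 4.39. Its part in the results was not tested.

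In lymph nodes the estrogen difference of TFF2 was −0.24 ± 0.22 (adjusted p = 0.943), with a 95% interval of −0.75 to 0.26. The difference of the responses, lymph node minus primary tumor, was 1.48 ± 0.36 (adjusted p = 0.166), and it was called without the lymph node of mouse 11 (1.42, adjusted p = 0.0489). By site, TFF2 was 1.21 ± 0.25 lower in lymph nodes after withdrawal (adjusted p = 0.192), while with estrogen it was 0.27 ± 0.25 higher (adjusted p = 0.589) with overlapping arrays. Among arrays with high hybridization controls the withdrawn site difference was −1.11, from 1 lymph node and 2 primary tumors. Over both sites TFF2 fell with estrogen by 0.98 ± 0.17 (limma adjusted p = 0.0202), a call lost without the lymph node of mouse 9 (adjusted p = 0.0571) or 10 (0.0512) or the primary tumor of mouse 11 (0.0746) or 14 (0.0754). Within mice the lymph node was lower by 1.54 in mouse 10 and by 0.88 in mouse 19, and higher by 0.11 in mouse 11 and 0.43 in mouse 14.

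TFF3, the intestinal trefoil factor of goblet cells and a common product of luminal breast tumors, had the widest range of the members and was lower with estrogen on every array. With estrogen it read 5.25, 4.98 and 6.61 in lymph nodes (mice 6, 11 and 14) and 5.55 and 6.30 in primary tumors (mice 11 and 14). After withdrawal it read 8.59, 8.00 and 10.36 in lymph nodes (mice 9, 10 and 19) and 7.77 and 8.55 in primary tumors (mice 10 and 19). The 5 estrogen arrays thus lay at 6.61 or below and the 5 withdrawn arrays at 7.77 or above. The share of all genes that separate the states this way is not given here. By limma 4636 of 17170 genes had an unadjusted p below 0.05 for estrogen over both sites. The same was seen in its place on the array, which was 5946 to 11544 from the top with estrogen and 1243 to 4605 after withdrawal.

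Over both sites TFF3 fell with estrogen by 2.81 ± 0.51 on the log2 scale, a 6.99-fold difference (limma adjusted p = 0.0212). It was 1 of 3 members called lower in this averaged comparison, with TFF2 and AGR2, where 8.01% of all genes were called, 7.04% lower and 0.978% higher. After quantile normalization the difference was −2.30 (adjusted p = 0.0452), and 279 genes were then called higher and 360 lower in place of 168 and 1208. The pellet states were compared between mice, yet mice 10, 11, 14 and 19 entered with both sites, almost as separate samples (consensus correlation −0.0415). In each of these mice both TFF3 readings lay on the same side of their group means. The SE and adjusted p of TFF3 may therefore be too small. Leaving out 1 array gave −3.09 to −2.43 and an adjusted p of 0.0119 to 0.115. The call was lost without the lymph node of mouse 9 (−2.90, adjusted p = 0.0550), the estrogen-treated primary tumor of mouse 11 (−2.67, 0.115) or mouse 14 (−2.94, 0.0669), or the withdrawn primary tumor of mouse 19 (−2.52, 0.0791).

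Within each site TFF3 was not called. In lymph nodes the difference was −3.38 ± 0.66 (adjusted p = 0.239), with a 95% interval of −4.87 to −1.88, and in primary tumors it was −2.23 ± 0.80 (adjusted p = 0.121) and −1.49 after quantile normalization (adjusted p = 0.313). In lymph nodes 0% of the 17170 genes and 0 of the 4 members tested were called by limma, while 1002 genes and 2 members, TFF3 and AGR2, had an unadjusted p below 0.05. Split by the hybridization controls, TFF3 in lymph nodes differed by −2.37 among the 4 arrays where these were low and by −5.38 between the 2 where they were high. The difference of the responses was −1.14 ± 1.05 (adjusted p = 0.760).

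No site difference of TFF3 was called, and its sign was not stable. With estrogen the lymph node minus primary tumor difference was −0.32 (95% interval −2.02 to 1.37, adjusted p = 0.848), and after withdrawal it was 0.82 (−0.87 to 2.52, adjusted p = 0.810), with overlapping arrays both times. Averaged over both states it was 0.25 (−0.95 to 1.45, adjusted p = 0.837), and −0.12 after quantile normalization. The lymph node of mouse 19 was the highest of all arrays and 1.81 above the primary tumor of the same mouse, while the other 3 mice with both sites differed by −0.57 to 0.30.

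AGR2 is needed in mucus-producing cells to fold mucins. In the main fit it was called by site and by pellet state only where the other was averaged. It lay near the threshold in both, and was called in neither after quantile normalization. Its first probe set read 8.19, 8.36 and 10.66 in lymph nodes with estrogen and 11.24, 10.92 and 10.48 after withdrawal. In primary tumors it read 6.70 and 6.58 with estrogen and 8.13 and 9.88 after withdrawal. The estrogen-treated primary tumors were the lowest of the 10 arrays. In lymph nodes the estrogen array of mouse 14 lay within the range of the withdrawn arrays and the other 2 lay below it.

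Over both sites AGR2 fell with estrogen by 2.07 ± 0.52, a 4.20-fold difference (limma adjusted p = 0.0478). This call lay at the threshold: without the mouse as a block it was −2.08 (adjusted p = 0.0521), after quantile normalization −1.51 (adjusted p = 0.0944), and it stayed past the threshold in 4 of 18 alternatives. Leaving out any 1 array other than the estrogen-treated lymph node of mouse 14 lost it, with an adjusted p of 0.0513 to 0.210. By site the differences were −1.81 ± 0.68 in lymph nodes (adjusted p = 0.759) and −2.34 ± 0.83 in primary tumors (adjusted p = 0.117), neither called. The latter was called without the lymph node of mouse 14 (−2.37, adjusted p = 0.0292). With the hybridization controls as a covariate, which in primary tumors split the arrays as the pellet state did, far more of all genes were called. In that setting the AGR2 difference in primary tumors was called too (−3.70, adjusted p = 0.0100). It was −1.43 without the primary tumor of mouse 19 (adjusted p = 0.430), −1.39 after quantile normalization (0.298) and −1.48 with the median of the AGR2 probe sets (0.212). In lymph nodes the difference was −1.65 among arrays with low hybridization controls and −2.11 between those with high ones. The difference of the responses was 0.53 ± 1.08 (adjusted p = 0.903), and its sign turned after quantile normalization (−0.23), without the lymph node of mouse 14 (−0.23) and without the primary tumor of mouse 19 (−0.38).

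Averaged over both states AGR2 was higher in lymph nodes than in primary tumors by 2.15 ± 0.54, a 4.43-fold difference (limma adjusted p = 0.0472). TFF1 and AGR2 were the 2 members called higher in lymph nodes, where 8.15% of all genes were called, 7.51% higher and 0.641% lower. After quantile normalization the AGR2 difference was 1.63 (adjusted p = 0.173), with 22 genes called higher and 40 lower in place of 1290 and 110, and 6 of 18 alternatives kept the call. Leaving out any 1 array other than the lymph nodes of mice 11 and 14 lost it, with an adjusted p of 0.0630 to 0.154. It was 2.41 ± 0.77 with estrogen (adjusted p = 0.0951) and 1.88 ± 0.77 after withdrawal (adjusted p = 0.460). The former was called without the lymph node of mouse 11 (2.81, adjusted p = 0.0350). Arrays did not overlap in either state, and the share of all genes that separate so is not given here. The lymph node read higher in 4 of 4 mice, by 1.66, 4.08, 2.79 and 0.60 in mice 11, 14, 10 and 19.

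The second AGR2 probe set read lower throughout, from 1.80 to 3.82, and its mean of 2.64 put it at the 45.7th percentile of probe set means. In estrogen-treated lymph nodes it read 2.24, 1.85 and 3.00 (mice 6, 11 and 14), and in withdrawn ones 3.82, 3.34 and 2.67 (mice 9, 10 and 19). In primary tumors it read 2.31 and 1.80 under estrogen and 2.53 and 2.87 without it, so the lymph node groups overlapped and the primary tumor groups did not. Fitted as a row of its own among 35191 probe sets, it differed by −0.77 ± 0.28 between estrogen and withdrawal over both sites (adjusted p = 0.161) and by 0.45 ± 0.30 between sites (adjusted p = 0.471). Both AGR2 probe sets therefore had the same sign in these comparisons, and the second was not called in either.

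AGR3 was not seen above the low end of the scale. Its probe set read 2.07, 2.17 and 2.11 in lymph nodes with estrogen, 2.13, 2.12 and 1.99 after withdrawal, 2.23 and 1.80 in primary tumors with estrogen and 2.16 and 2.34 after withdrawal. These values filled places 43801 to 61023 of 61359, and their mean of 2.11 was below the filter of 2.31, so AGR3 was not tested. Its group means lay between 2.02 and 2.25 and groups next to each other in order overlapped. The withdrawn primary tumors lay just above the withdrawn lymph nodes (lowest 2.16 against highest 2.13). A probe set this low gives no sign of whether the transcript is absent or its probes do not bind.

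**Figure D2:**
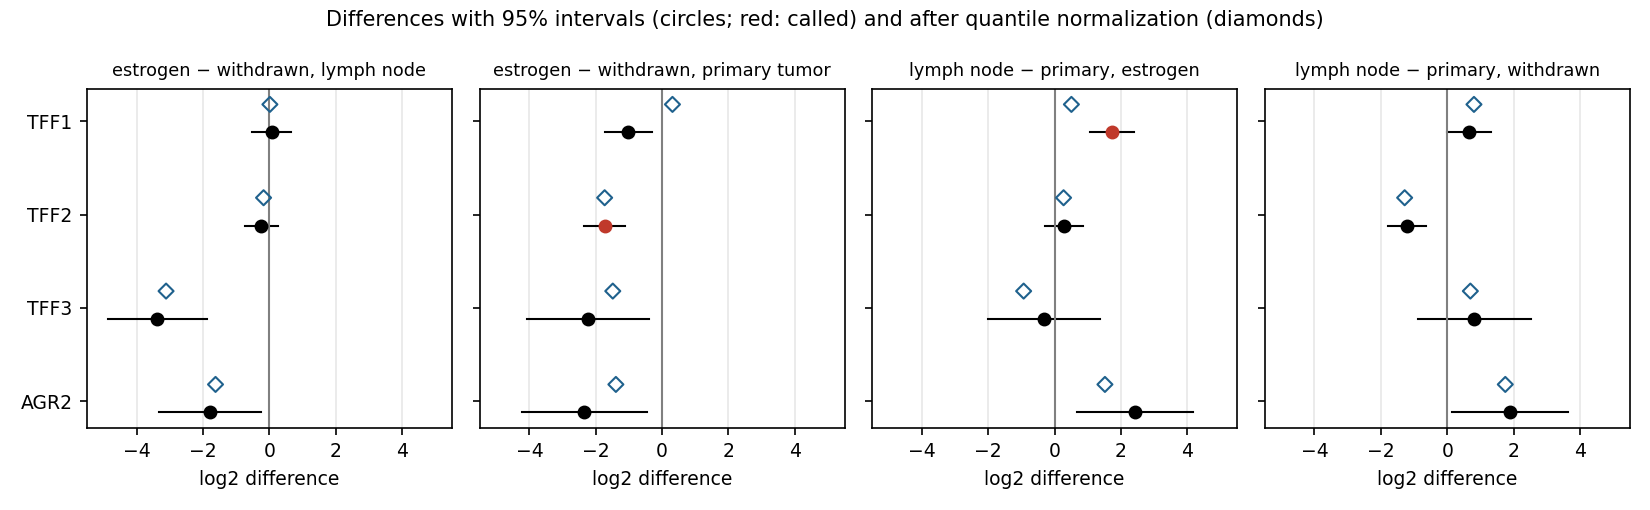
Log2 differences (horizontal axis) of the 4 tested members in the 4 comparisons between groups, as circles with 95% intervals from limma (red where the adjusted p was below 0.05) and as diamonds after quantile normalization. TFF1 between sites with estrogen and TFF2 between pellet states in primary tumors are the called differences, and the diamond of TFF1 in primary tumors lies on the other side of 0.

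The order of the 4 groups on the deposited scale differed between members. The share of all genes whose groups do not overlap is not given here. For TFF1 both lymph node groups came first and overlapped, followed without overlap by withdrawn and then estrogen-treated primary tumors. After quantile normalization the primary tumor groups changed places for TFF1, with means of 13.38 with estrogen and 13.07 after withdrawal. For TFF2 withdrawn primary tumors came first, without overlap with the withdrawn lymph nodes next in order, which in turn lay just above the estrogen-treated lymph nodes (lowest 3.71 against highest 3.68). Estrogen-treated primary tumors came last and overlapped these. For TFF3 the withdrawn groups of both sites overlapped each other and lay above the estrogen groups, which also overlapped. For AGR2 withdrawn lymph nodes came first (10.88 ± 0.39, SD, n = 3), and lymph nodes with estrogen (9.07 ± 1.38, n = 3) overlapped them and the withdrawn primary tumors (9.00 ± 1.24, n = 2). Estrogen-treated primary tumors (6.64 ± 0.09, n = 2) came last without overlap.

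In primary tumors 4 of 4 tested members had a negative estrogen difference, though TFF1 was positive after quantile normalization. In lymph nodes 3 of 4 had one. The medians were −1.98 and −1.02 where all genes had −0.10 and −0.02. Genes averaging above 10, as TFF1 did, had a median of −1.90 in primary tumors and −0.10 in lymph nodes. TFF1 averaged 13.59, and the genes above 12 had −1.78 and 0.02. Those averaging 7 to 10, as TFF3 and AGR2 did, had −1.15 and −0.17. Those averaging under 4, as TFF2 did, had 0.11 and 0.03. TFF2 lay at the edge of that band, and genes averaging 4 to 7 had −0.26 and −0.07. No member was called for a difference between the responses of the sites, where 2 genes (0.0116%) of 17170 were called. At an unadjusted p below 0.05 there were 1862 genes in that comparison, TFF1 and TFF2 among them. After quantile normalization the TFF1 difference of responses was −0.30, the other sign. In lymph nodes against primary tumors after withdrawal 0 members and 0% of genes were called by limma, with 1723 genes and 3 members (TFF1, TFF2 and AGR2) at an unadjusted p below 0.05.

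**Figure D3:**
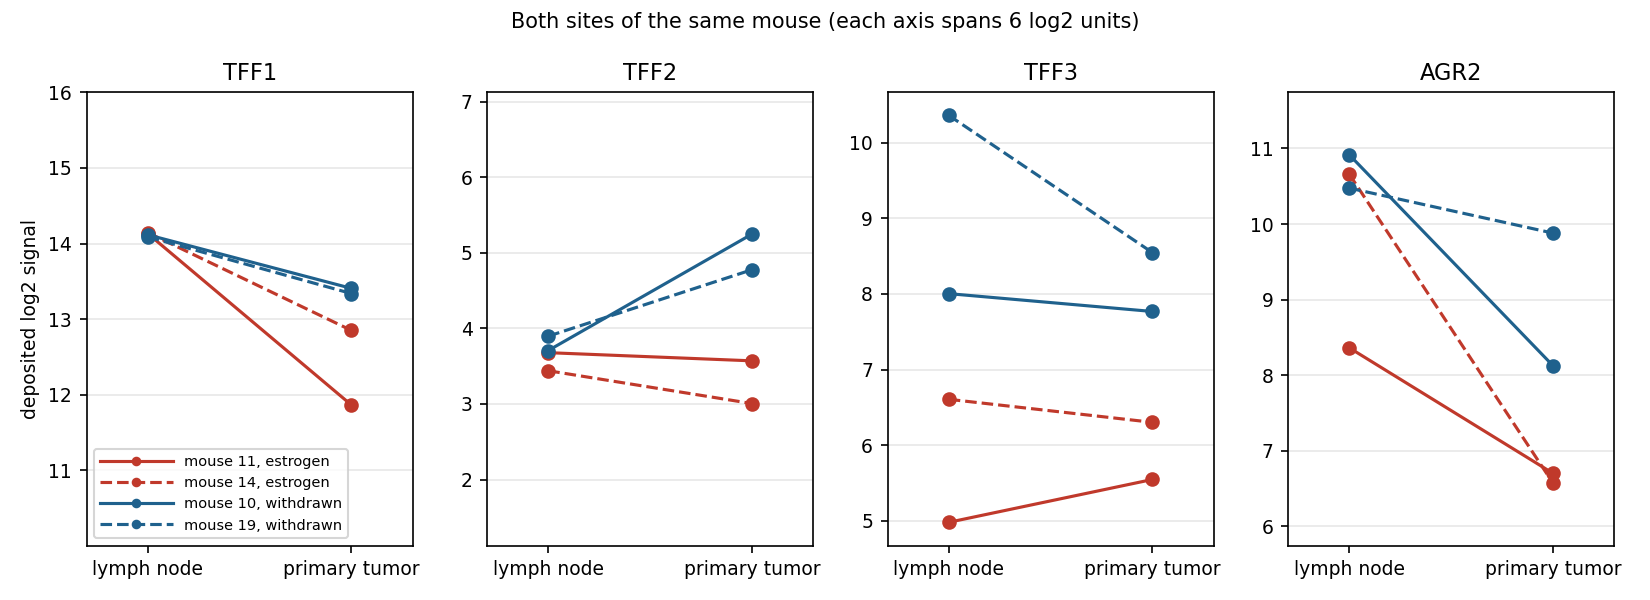
Deposited log2 signal (vertical axes, each spanning 6 units) of TFF1, TFF2, TFF3 and AGR2 in both sites of the 4 mice that gave both (red with estrogen, blue after withdrawal). TFF1 and AGR2 read higher in the lymph node in 4 of 4 mice, and TFF2 read higher in the primary tumor in the withdrawn mice 10 and 19.

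**Figure D4:**
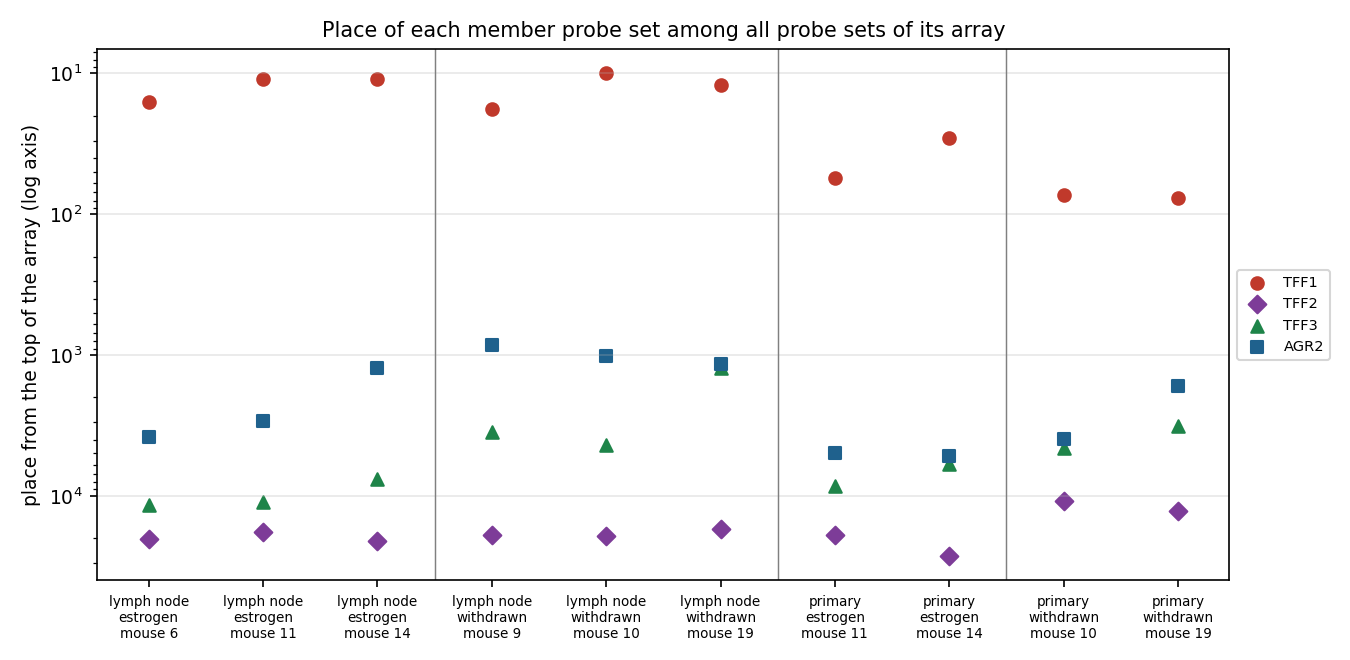
Place of each member among the 61359 probe sets of its array, counted from the brightest (vertical log axis), for the 10 arrays. TFF1 holds places 10 to 18 in lymph nodes and 29 to 77 in primary tumors, and TFF3 holds places 5946 to 11544 with estrogen and 1243 to 4605 after withdrawal.

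The genes most like each member over the 10 arrays were taken from the 17170 tested. They were picked as the highest of all Pearson correlations, so they are a description without a test, and arrays share the difference in range described above. For TFF1 they were the respiratory chain subunit gene NDUFB4 (r = 0.994), CUTA (0.987) and the translation initiation factor gene EIF2S1 (0.987), and after quantile normalization these values were 0.932, 0.903 and 0.884. For TFF2 they were the semaphorin gene SEMA5A (0.931), the mRNA export gene THOC2 (0.930) and the Notch coactivator gene MAML2 (0.916). For TFF3 they were ARHGAP32 (0.964), the receptor tyrosine kinase gene ERBB4 (0.959) and CLMN (0.956), which kept 0.942 to 0.954 after quantile normalization. For AGR2 they were EFR3B (0.976), CRISP3, a secreted cysteine-rich protein gene (0.958), and LXN, a carboxypeptidase inhibitor gene (0.956), with 0.917 to 0.950 after quantile normalization. CRISP3 spanned 2.39 to 11.01 over the arrays and ERBB4 3.05 to 9.15.

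**Figure D5:**
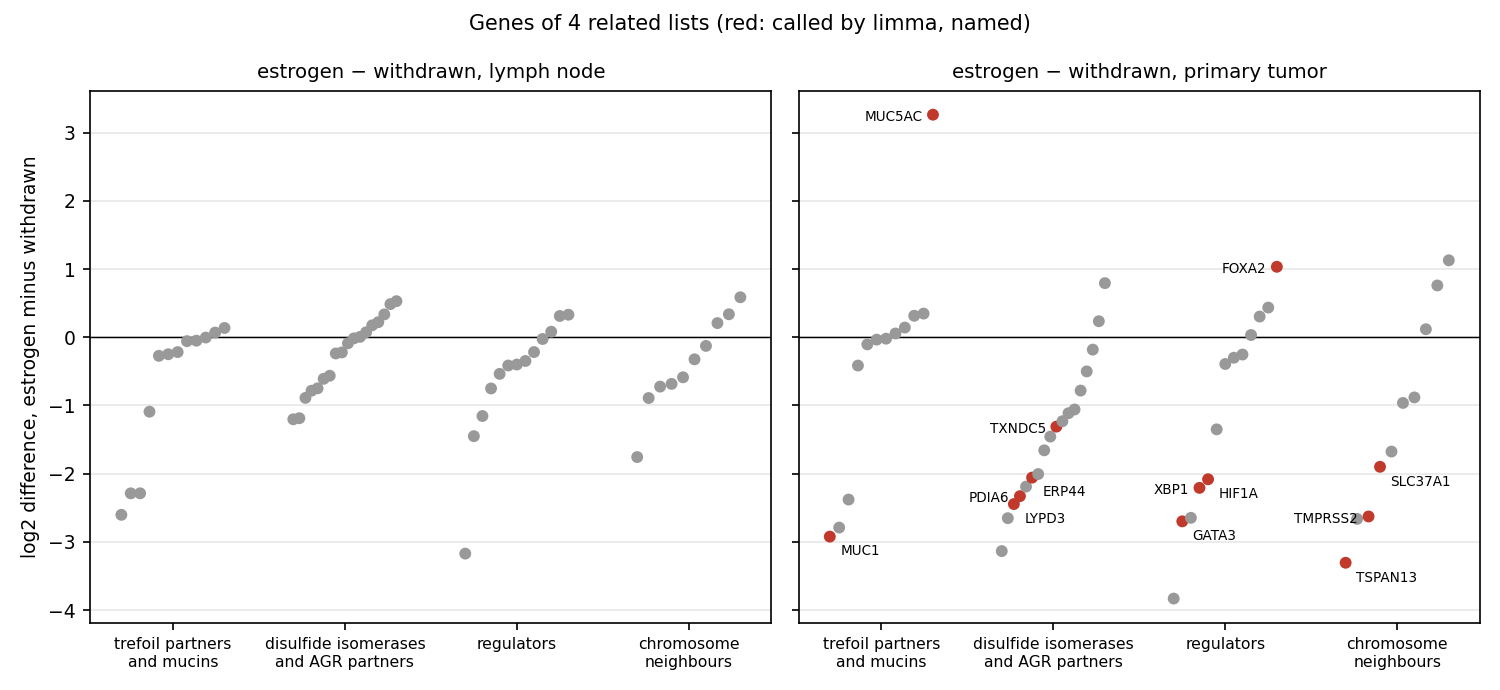
Log2 differences, estrogen minus withdrawn (vertical axis), of the tested genes of 4 related lists in lymph nodes (left) and primary tumors (right), 1 point per gene in rising order within a list. No gene is called in lymph nodes; in primary tumors 2 called genes, MUC5AC and FOXA2, lie above 0 and the other 11 lie below it.

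Mucins and other partners of trefoil peptides did not move as 1 group. In primary tumors 1 of 12 was called higher with estrogen and 1 lower, where 0.879% of all genes were called higher and 6.94% lower. MUC5AC, the gastric mucin released with TFF1 in the stomach, was higher with estrogen by 3.26 ± 0.50 (limma adjusted p = 0.0137), with the same sign in 4 of its 5 probe sets. After quantile normalization this was 4.16 (adjusted p = 0.0182). It read 7.60 and 7.70 in estrogen-treated primary tumors and 3.54 to 5.12 on the other 8 arrays. The cell surface mucin MUC1 was lower by 2.92 ± 0.32 (adjusted p = 0.00603), and by 1.73 after quantile normalization (adjusted p = 0.0428). Over both sites 3 of 12 were called lower with estrogen and 1 higher, where 7.04% of all genes were called lower and 0.978% higher. There CXCR4, a chemokine receptor reported to respond to TFF2, fell by 2.70 ± 0.60 (adjusted p = 0.0352, 3 of 4 probe sets), and ACKR3, a related receptor, fell by 2.33 ± 0.39 (adjusted p = 0.0173). In lymph nodes 0 of 12 were called and the median was −0.23, against −0.02 for all genes. MUC1 (−2.29 ± 0.26, adjusted p = 0.0875) and ACKR3 (−2.29 ± 0.50, adjusted p = 0.304) had the largest moderated t values.

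Of the protein disulfide isomerase family and the AGR2 surface partner LYPD3, 18 genes were tested. In primary tumors 4 fell with estrogen and 0 rose: LYPD3 (−2.45 ± 0.33), PDIA6 (−2.33 ± 0.56), ERP44, which retains enzymes in the secretory pathway (−2.06 ± 0.38), and TXNDC5 (−1.31 ± 0.33). Of all genes 7.82% were called there, 6.94% lower. The list had a median of −1.38, against −0.10 for all genes. Genes averaging 4 to 7 had −0.26, those averaging 7 to 10 had −1.15 and those above 10 had −1.90. The mean of the list was 6.12 to 8.18 on all arrays. After quantile normalization its median in primary tumors was −0.65, against 0.06 for all genes. In lymph nodes the median was −0.16, 0 were called and LYPD3 was at −0.78 ± 0.27 (adjusted p = 0.727). After quantile normalization 0 of the 18 were called in primary tumors and TXNDC5 was at 0.46, the other sign. With estrogen 4 were called higher in lymph nodes, TXNDC5 (2.77 ± 0.31), TMX2 (2.07 ± 0.22), LYPD3 (1.99 ± 0.31) and ERP44 (1.60 ± 0.35), where 7.81% of all genes were. The list median in that comparison was 1.32, where genes averaging 7 to 10 had 1.11 and those above 10 had 1.88. After quantile normalization again 0 of the 18 were called. TXNDC12, the third member of the anterior gradient group, was singled out after its values were seen. It was not called in any of the 7 comparisons and had group means of 8.06 to 9.91.

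Regulators known for trefoil or AGR genes included the estrogen receptor gene ESR1 and the luminal factors FOXA1 and GATA3. Of 13, 5 fell and 1 rose with estrogen over both sites, where 7.04% of all genes were called lower and 0.978% higher. ESR1 fell by 3.50 ± 0.82, though only 2 of its 6 probe sets had that sign. GATA3 fell by 1.72 ± 0.22, the unfolded protein response factor XBP1 by 1.28 ± 0.20, and FOXA1 and HIF1A, named after their values were seen, by 2.05 ± 0.49 and 1.25 ± 0.32. FOXA2, at a low level, rose by 0.68 ± 0.15 (2 of 3 probe sets). After quantile normalization FOXA1 (−1.82), GATA3 (−0.79) and FOXA2 (0.71) were still called and ESR1 (−2.69), XBP1 (−0.57) and HIF1A (−0.45) were not. In lymph nodes 0 of 13 were called, with ESR1 at −3.17 ± 1.06 (adjusted p = 0.675) and GATA6 at −1.15 ± 0.36 (adjusted p = 0.624).

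Genes known to lie in the same chromosome bands as the trefoil cluster or AGR2 and AGR3 gave 10 tested genes. Over both sites 3 fell with estrogen and 0 rose, namely the protease gene TMPRSS2 (−2.19 ± 0.21, 3 of 4 probe sets), the tetraspanin gene TSPAN13 (−1.95 ± 0.26) and the phosphate transporter gene SLC37A1 (−1.40 ± 0.20, 1 of 2 probe sets), and all 3 were still called after quantile normalization. The share of all genes called in this comparison was 8.01%. The list median was −0.79, against −0.04 for all genes, and −0.12 against 0.05 after quantile normalization. Its median in primary tumors turned from −1.32 to 0.13. In lymph nodes 0 of 10 were called, with TMPRSS2 at −1.76 ± 0.27 (adjusted p = 0.205) and SLC37A1 at −0.89 ± 0.25 (adjusted p = 0.545).

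Markers of cell types moved with some of these results. The mean of 6 luminal markers was 7.57 to 7.82 on the estrogen-treated primary tumor arrays. It was 8.75 to 9.16 on the withdrawn ones and 9.06 to 9.72 in lymph nodes. In primary tumors 2 of 6, EPCAM and CDH1, were called lower with estrogen, where 6.94% of all genes were. Another 2, KRT7 and KRT19, had a positive difference, and the list median was −1.08, against −0.10 for all genes. After quantile normalization 0 of 6 were called there, and the list median was 0.06, as for all genes. In that setting EPCAM (−1.87) and CDH1 (−1.40) stayed negative, and KRT7, KRT8, KRT18 and KRT19 were positive. On the deposited scale the estrogen-treated primary tumors were also the arrays on which TFF1 and AGR2 were lowest. In captured tissue fewer cells of a type and less RNA per cell cannot be told apart. The part of the luminal marker differences in the member differences was not tested. Of 7 goblet and gastric secretory markers MUC5AC was the 1 called in primary tumors. The mean of the 6 leukocyte markers was 2.72 to 3.23 on all arrays and none of the 4 tested was called. Of 7 stromal and endothelial markers COL3A1 was lower in lymph nodes (−1.72 ± 0.33 over both states, adjusted p = 0.0207), a call lost after quantile normalization (−1.89, adjusted p = 0.0566). The muscle marker CKM was lower in lymph nodes with estrogen (−1.11 ± 0.28, adjusted p = 0.0447), and this call was lost too (−1.14, adjusted p = 0.127). The markers PTPRC, LYZ, LUM, ADIPOQ, FABP4, ACTA1 and MYH2 did not reach the filter.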

How the data were processed

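Per the labels, RNA of laser-captured cells was PCR-amplified, labelled and hybridized to 1 Affymetrix array per sample, 10 in all. The deposited values are log2 signals made with Partek and RMA, per the submitters' processing notes, which give no version. RMA usually includes quantile normalization, but the arrays did not share 1 distribution, so which normalization was applied is not given in the sources used here and comparisons of level between arrays rest on an uncertain scale. Of 61359 probe sets 44532 had 1 gene symbol and 1492 several, in an annotation table that can be old, and 62 were controls. A gene was read from its probe set with the highest mean and tested where that mean was at or above the 25th percentile over the array (2.31), leaving 17170 genes and 4 of 5 members.

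Comparisons were fitted with limma 3.58.1 (lmFit, eBayes; R 4.3.3), 1 mean per group, all 10 arrays in 1 fit, mouse as a random block (consensus correlation −0.0415), and Benjamini-Hochberg adjustment over all genes in each of 7 comparisons, with calls below 0.05. The mouse numbers pair sites of 1 animal. Deviations over all genes correlated at 0.176, −0.208, −0.210 and 0.0832 in mice 10, 11, 14 and 19. Both sites of a mouse thus entered comparisons over both sites almost as separate samples, also for a gene whose sites moved together. The fit was also run on simulated data with independent noise on each array and changes in estrogen-treated lymph nodes alone. These data held no link between sites of a mouse and no narrower range on any array. The run therefore does not bear on those features. Labels give 1 mouse per replicate, and the number of arrays limits precision. Sets of 2 arrays have an SD from 2 values.

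The members and lists were chosen with earlier results of these data known. Named were all members, the called list genes (at most 4 per list and comparison by moderated t, or the leading 2 where none was called), and the 3 genes most correlated with each member. Alternatives were quantile normalization, no mouse block, other filters, other uses of probe sets, an intensity trend, the hybridization controls as a covariate, and each array left out.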

Additional observations from a re-analysis of the deposited data

Results flagged for a closer look

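The site difference of TFF2 pointed one way in both estrogen-treated mice that gave both sites and the other way in both withdrawn mice. The lymph node read higher by 0.11 and 0.43 in mice 11 and 14 and lower by 1.54 and 0.88 in mice 10 and 19. As the difference of the estrogen responses, lymph node minus primary tumor, this came to 1.48 ± 0.36 on the log2 scale, which limma did not call (adjusted p = 0.166, with 0.0318 to 0.553 over 18 alternatives).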

How the results depend on the processing

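Of the 5 members, the number called was 0 in lymph nodes (estrogen against withdrawal) under all 19 alternatives, including 1 chosen after seeing the data that left out both estrogen-treated primary tumors. In primary tumors it was 1, or 2 with the hybridization control covariate, and 0 to 2 with 1 array left out. For the difference of responses it was 0, or 1 with that covariate, and 0 to 1 with 1 array left out. For lymph node against primary tumor with estrogen it was 1, 0 after quantile normalization, 2 with the covariate, and 0 to 2 with 1 array left out. After withdrawal it was 0, or 1 with the covariate. For estrogen over both sites it was 3, 2 after quantile normalization, without the block, without a filter, with the median of probe sets and with probe sets as rows, and 0 to 3 with 1 array left out. For the site over both states it was 2, 0 after quantile normalization, 1 each without a filter, with the median of probe sets and with probe sets as rows, and 0 to 2 with 1 array left out. Without the replicate block AGR2 over both sites alone lost its call (−2.08, adjusted p = 0.0521), and no other member's call changed. Of all 17170 genes, 1376 were called for estrogen over both sites and 639 after quantile normalization. These counts were 1342 and 236 in primary tumors, 1504 and 87 between sites with estrogen, and 1400 and 62 for the site over both states. A change in the number of members called is therefore not by itself a result about the members.

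Quantile normalization reversed TFF1 with estrogen in primary tumors (0.31), over both sites (0.16) and in the difference of responses (−0.30), AGR2 in the latter (−0.23) and TFF3 between sites over both states (−0.12). With 1 array left out, signs turned within −0.0028 to 0.10 for TFF1 in lymph nodes, −0.38 to 1.31 for AGR2 in the difference of responses, and −0.81 to 0.0059 and −0.10 to 0.51 for TFF3 between sites with estrogen and over both states. The causes were not tested. With the covariate 5994 genes were called in primary tumors and 4982 between sites with estrogen, where 1342 and 1504 had been, and with 1 array left out 5 to 3585 and 179 to 3860. For the difference of responses it called 4049 (2 without it), between sites after withdrawal 2276 (0), over both sites 5244 (1376) and over both states 3259 (1400).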
